A study of Saccharomyces cerevisiae with 18 samples.

Results

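The genes described here encode 10 enzymes that turn squalene into ergosterol in budding yeast, Saccharomyces cerevisiae. They were chosen by name in pathway order, as ERG1, ERG11, ERG24, ERG25, ERG26, ERG6, ERG2, ERG3, ERG5 and ERG4. All 10 were found by symbol in the probe annotation, each with 1 probe, among 5650 genes measured. The study set 2 ethanol-tolerant mutants, CM1 and SM1, beside their parent W303-1A, a laboratory strain. Total RNA of each culture was hybridised on a 2-colour array against a common reference, the combined RNA of the 3 unstressed W303-1A cultures, called the pool below. The 18 arrays fall into 6 groups of 3 separate cultures, which are CM1 with 6.5 % (v/v) ethanol, CM1 with 0 % ethanol, SM1 with 6.5 % ethanol, SM1 with 0 % ethanol, W303-1A with 6.5 % ethanol and W303-1A with 0 % ethanol. All cultures were started from cells that had not met ethanol, late in exponential growth. Each mutant is a single strain of the W303-1A background, and the mutations, the growth medium and the time of sampling were not given in the sources used here.

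Ergosterol is the main sterol of yeast membranes and does there what cholesterol does in animal cells, setting the order and permeability of the bilayer. Its synthesis runs from acetyl-CoA through mevalonate to squalene, and from squalene through lanosterol and a series of demethylations, a side-chain methylation and double-bond changes to ergosterol. Several of the later steps use molecular oxygen and haem or iron, and the pathway genes are known targets of the sterol-responsive activators Upc2 and Ecm22. Yeast sterol content is known to bear on how well cells withstand ethanol.

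Every value below is a log2 ratio of a culture over the pool, so that 0 is the level of the pool and -1 is a level 2-fold below it. Replicate 1 of each group was hybridised with the dyes swapped, and its values were multiplied by -1. The deposited table does not state the direction of its ratio, and red over green is the likely reading rather than a certain one. Green over red throughout would reverse every sign below and leave the p-values, so that the 9 genes lower in W303-1A with ethanol would be higher. HSP12, a membrane-associated stress protein gene, had deposited values with ethanol of -4.83 on the swapped and 2.14 and 4.25 on the normal arrays in CM1. The same arrays gave -6.32, 5.16 and 4.69 in SM1 and -7.01, 8.12 and 7.92 in W303-1A. Of the 10 ergosterol genes, 7 in CM1, 9 in SM1 and 10 in W303-1A changed sign between the swapped array and the normal arrays with ethanol, while 44.9, 53.3 and 49.2 % of all genes did so.

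Replicate 2 of CM1 with ethanol stood apart from the other arrays of its group. Its HSP12 value of 2.14 was the lowest of the 9 arrays with ethanol, and limma's array weight for it was 0.216, the lowest of the 18. The replicate 1 arrays with ethanol had weights nearly as low, at 0.291 in CM1, 0.285 in SM1 and 0.242 in W303-1A. The weight alone therefore does not set replicate 2 of CM1 apart. For the 10 genes, the counts that passed and the medians in the comparisons of CM1 with ethanol are given with and without it. Counts of non-overlapping arrays, the further gene lists and the correlations include it. The W303-1A arrays without ethanol were measured against a pool made from the same strain and condition, yet 6 of the 10 genes were above 0 on all 3 of them, and the mean of the 10 genes was 0.015, 0.63 and 0.39 on these arrays. The ethanol response of the parent, both differences of responses from W303-1A and both comparisons of a mutant with W303-1A without ethanol use these arrays. The comparisons of strains with ethanol and every comparison of CM1 with SM1 do not use their levels.

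**Figure D1:**
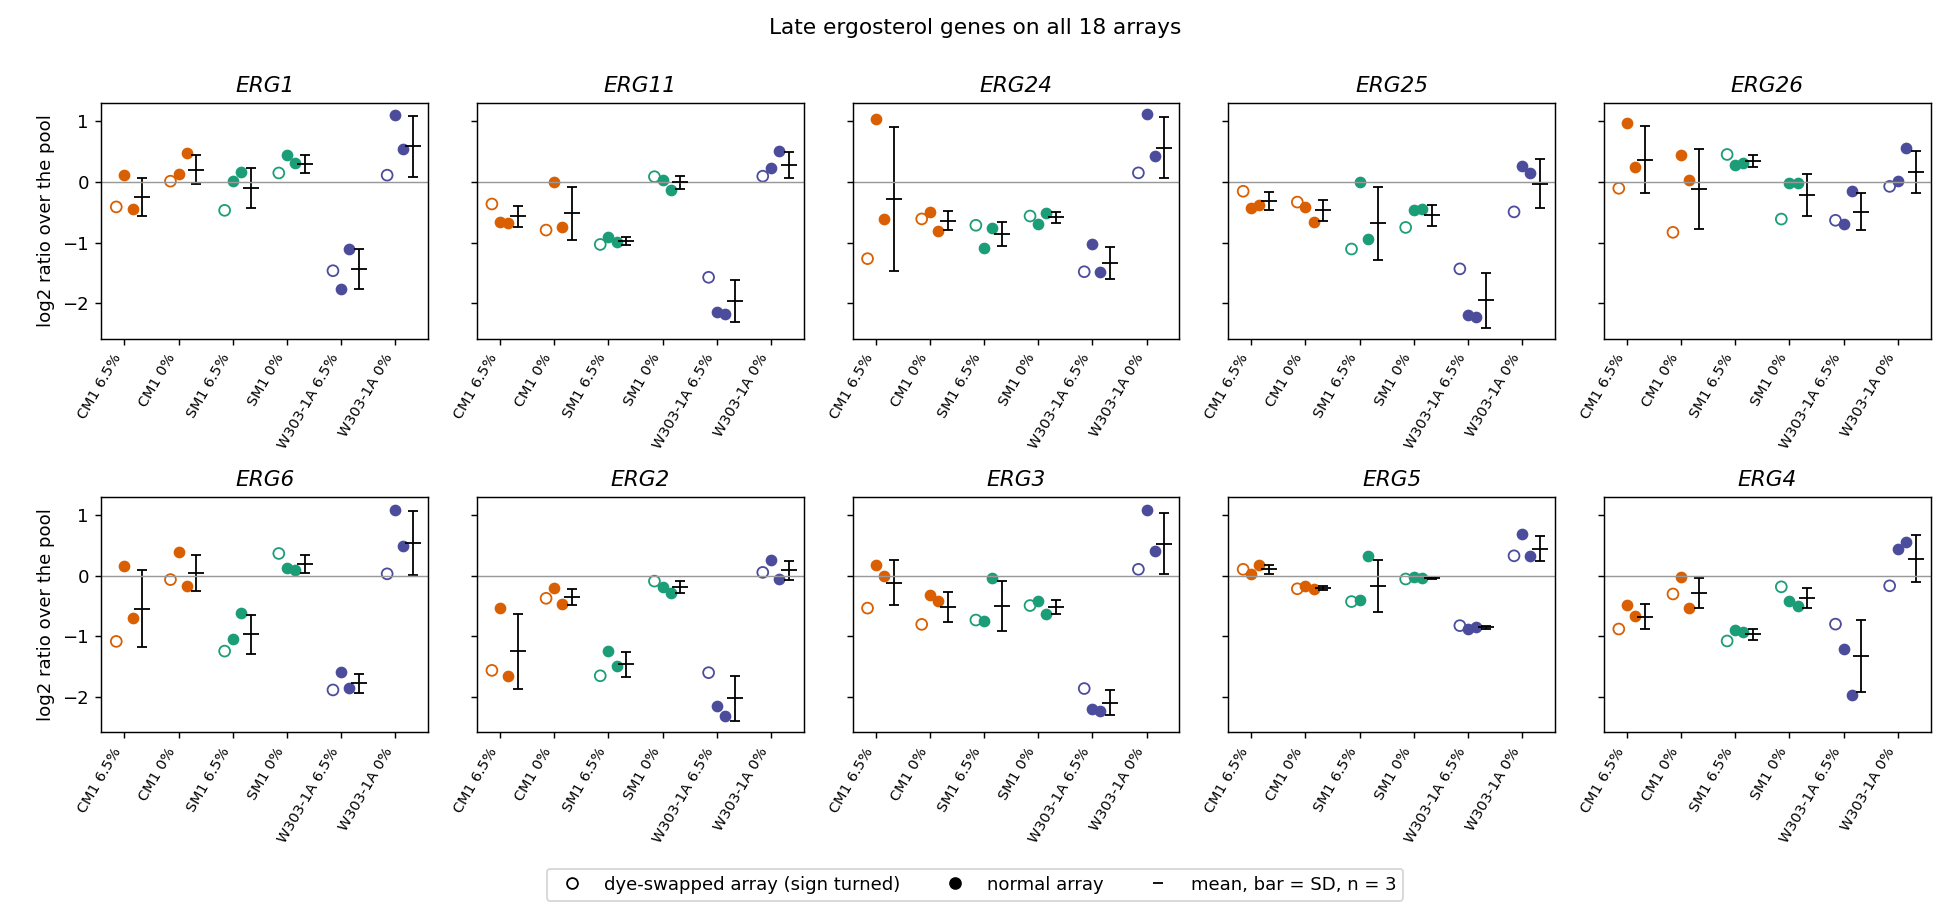
Log2 ratio over the pool (vertical axes) of the 10 late ergosterol genes on each of the 18 arrays, by group (horizontal axes). Open points are dye-swapped arrays with the sign turned, filled points are normal arrays, and the bars show the mean ± SD of 3 arrays. The 3 arrays of W303-1A with 6.5 % ethanol had the lowest group mean for each of the 10 genes.

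In the parent W303-1A, late ergosterol genes fell with ethanol. Of the 10 genes 9 passed as lower and 0 as higher (limma, Benjamini-Hochberg adjusted p under 0.05 over 5650 genes), where 13.6 % of all genes passed as lower and 10.2 % as higher. The median difference, ethanol minus no ethanol, was -1.98 for the 10 genes and 0.028 for all genes. For all 10 genes the 3 arrays with ethanol lay below the 3 arrays without it, which held for 14.3 % of all genes. The mean of the 10 genes was -1.35, -1.59 and -1.63 on the arrays with ethanol, against 0.015, 0.63 and 0.39 on the arrays without. A lower level in every cell and a smaller share of cells that express a gene cannot be told apart in RNA of whole cultures.

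The step that opens this stretch is catalysed by squalene epoxidase, the product of ERG1 and the target of allylamine antifungals. ERG1 stood at -1.46, -1.76 and -1.10 in W303-1A with ethanol, against 0.11, 1.11 and 0.55 without. It was 4.09-fold lower with ethanol (log2 difference -2.03 ± 0.25 SE, adjusted p = 5.63e-05). ERG11 encodes lanosterol demethylase, a cytochrome and the target of azole antifungals. Its values were -1.57, -2.15 and -2.18 with ethanol, against 0.095, 0.23 and 0.52 without. ERG11 was 4.75-fold lower (-2.25 ± 0.25, adjusted p = 2.66e-05). The sterol reductase gene ERG24, whose enzyme acts on the product of Erg11, had -1.48, -1.03 and -1.48 with ethanol, against 0.15, 1.12 and 0.43 without, a difference of -1.90 ± 0.41 (adjusted p = 0.00342). Its SE was the widest of the 10 genes.

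Erg25 and Erg26 work in turn in the complex that removes the methyl groups from the sterol's first ring. ERG25, the methyl oxidase, had -1.43, -2.20 and -2.23 with ethanol, against -0.49, 0.27 and 0.14 without. The difference was -1.93 ± 0.31 (adjusted p = 0.00046). ERG26, the decarboxylating dehydrogenase, was the exception among the 10 genes. Its values were -0.63, -0.70 and -0.14 with ethanol, against -0.073, 0.020 and 0.56 without, and the difference of -0.66 ± 0.28 did not pass (adjusted p = 0.106, 95 % interval -1.27 to -0.056).

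The remaining genes act on the side chain and on the double bonds of the rings. ERG6, the sterol methyltransferase that adds a carbon which animal sterols lack, had -1.88, -1.59 and -1.85 with ethanol, against 0.033, 1.08 and 0.50 without (difference -2.31 ± 0.29, adjusted p = 7.12e-05). ERG2, the sterol isomerase, had -1.60, -2.15 and -2.31 with ethanol, against 0.057, 0.25 and -0.045 without (-2.11 ± 0.28, adjusted p = 0.00011). Both groups of arrays lay far apart for these 2 genes. ERG3, the sterol desaturase of the ring, showed the largest fall of the 10 genes. It stood at -1.86, -2.19 and -2.23 with ethanol, against 0.11, 1.08 and 0.40 without, which made it 6.17-fold lower (-2.63 ± 0.27, adjusted p = 1.49e-05). ERG5 and ERG4 had point differences smaller in size than those of the other genes except ERG26. ERG5, the side-chain desaturase and the other cytochrome of the pathway, had closely placed values of -0.82, -0.88 and -0.85 with ethanol, against 0.33, 0.68 and 0.33 without (-1.30 ± 0.21, adjusted p = 0.00046). ERG4, the reductase of the last step, had -0.80, -1.20 and -1.96 with ethanol, against -0.16, 0.45 and 0.55 without (-1.60 ± 0.29, adjusted p = 0.00094). Whether the genes differed from each other in the size of the fall was not tested.

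The 9 calls were kept without any 1 of the 18 arrays. With no array turned, the reading in which every deposited ratio already ran culture over pool, 0 of 10 passed, although all 10 differences remained below 0. In that fit 0 of all genes passed, against 1349 with replicate 1 turned, so the loss was not particular to the 10 genes. As deposited, the ethanol differences of swapped and normal arrays correlated across genes at -0.506 in W303-1A, -0.33 in SM1 and -0.131 in CM1. HSP12 also had opposite signs on the swapped and normal arrays with ethanol in each strain.

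**Figure D2:**
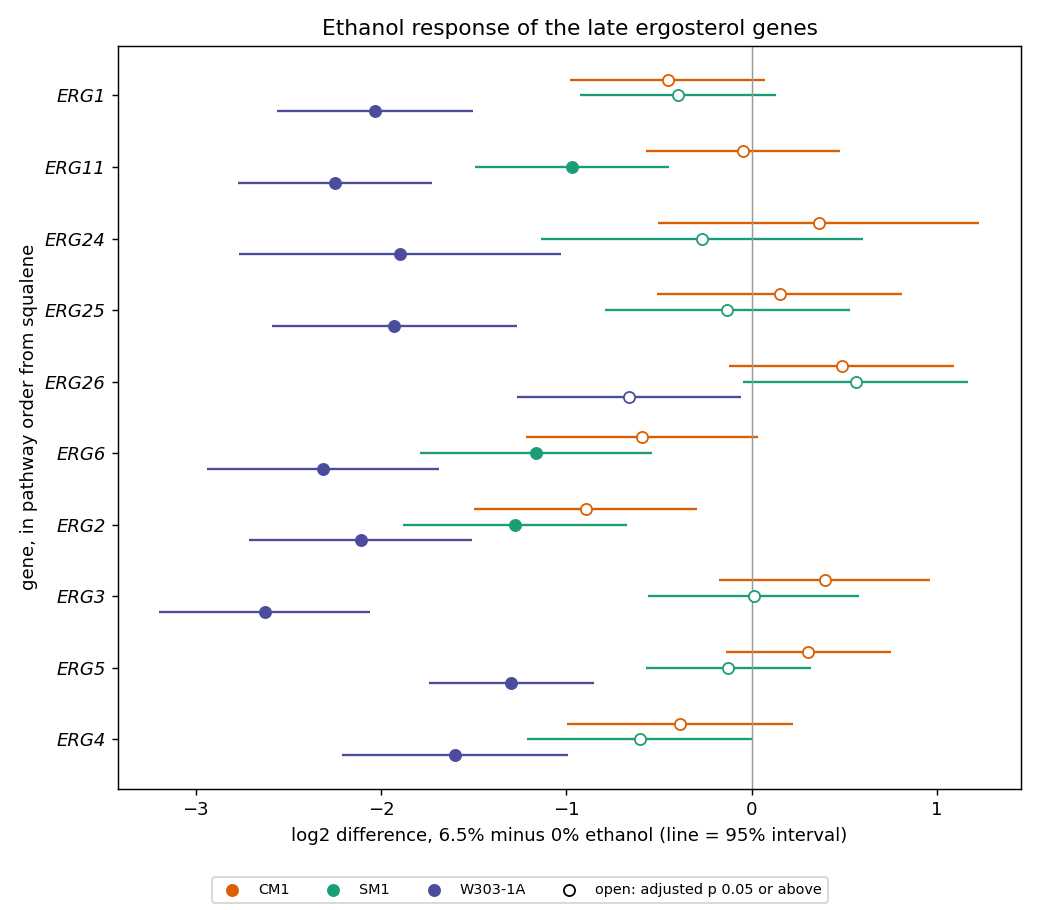
Log2 difference between 6.5 % and 0 % ethanol (horizontal axis) of each gene in pathway order (vertical axis), for CM1, SM1 and W303-1A. Points are limma estimates with lines for the 95 % interval, filled where the adjusted p was under 0.05. W303-1A has 9 filled points between -2.63 and -1.30, SM1 has 3 and CM1 has 0.

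In CM1 none of the 10 genes passed with ethanol (limma, 0 lower and 0 higher), where 1.73 % of all genes passed as lower and 3.88 % as higher. At an unadjusted p under 0.05, 1 gene was lower, the isomerase gene ERG2, where 20.9 % of all genes were past it in either direction. Its values were -1.56, -0.53 and -1.65 with ethanol, against -0.37, -0.21 and -0.47 without, and the difference was -0.90 ± 0.28 (adjusted p = 0.0766). The arrays with ethanol lay wholly below those without for ERG2, as for 8.12 % of all genes, and wholly above them for the side-chain desaturase gene ERG5, as for 9.66 %. The 10 differences ran from -0.90 to 0.49 with a median of 0.052, and 5 were below 0. ERG3 illustrates the spread, with -0.53, 0.18 and 0.0015 with ethanol against -0.80, -0.32 and -0.41 without. Without replicate 2 of CM1 with ethanol the median became -0.14 and ERG2 passed as lower (-1.27 ± 0.23, adjusted p = 0.0046). Of all genes, in either direction, 402 passed without that replicate, against 317 with it. On that replicate ERG24 was at 1.04 and ERG26 at 0.97, while the other arrays of the group gave -1.27 and -0.61 for ERG24 and -0.10 and 0.24 for ERG26.

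In SM1 3 of the 10 genes passed, all lower with ethanol, where 1.26 % of all genes passed as lower and 2.83 % as higher. ERG2 had -1.65, -1.24 and -1.49 with ethanol, against -0.087, -0.18 and -0.28 without (difference -1.28 ± 0.28, adjusted p = 0.0171). ERG6 had -1.24, -1.04 and -0.61 with ethanol, against 0.37, 0.13 and 0.10 without (-1.16 ± 0.29, adjusted p = 0.0358). ERG11 had -1.03, -0.90 and -0.99 with ethanol, against 0.087, 0.026 and -0.12 without (-0.97 ± 0.25, adjusted p = 0.0364). The arrays with ethanol lay wholly below those without for 5 of the 10 genes, these 3 with ERG24 and ERG4, and wholly above them for 1, ERG26, while 10.4 % of all genes lay below and 13.2 % above. The 10 differences had a median of -0.33, and 8 were below 0. ERG3, which fell most in the parent, had -0.73, -0.75 and -0.028 with ethanol against -0.49, -0.41 and -0.64 without, a difference of 0.012 ± 0.27. ERG26 differed in the other direction, with 0.45, 0.28 and 0.30 with ethanol against -0.61, -0.010 and -0.021 without, and did not pass (0.56 ± 0.28, adjusted p = 0.321). The calls in SM1 rested on every one of its arrays. Without replicate 2 with ethanol 1 gene passed, and without any of the other 5 SM1 arrays 0 passed. Of all genes, in either direction, 163 passed in the former fit and 113 to 209 in the latter, against 231 with all arrays.

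The strains were then compared without ethanol, which shows the level from which each response started. All 10 genes lay below the parent in both mutants, and 0 passed in either (limma). The share of all genes that passed as lower was 1.12 % for CM1 and 1.56 % for SM1. At an unadjusted p under 0.05, 4 genes were lower in CM1 and 4 in SM1, where 12 % and 12.7 % of all genes were past it in either direction. The median difference from W303-1A was -0.53 for CM1 and -0.44 for SM1. ERG3 came nearest to the threshold, with -0.80, -0.32 and -0.41 in CM1 and -0.49, -0.41 and -0.64 in SM1, against 0.11, 1.08 and 0.40 in W303-1A. The difference was -1.04 ± 0.27 in each mutant (adjusted p = 0.0769 for CM1 and 0.0679 for SM1). ERG24 had the largest difference, with -0.61, -0.50 and -0.81 in CM1 and -0.56, -0.69 and -0.51 in SM1, against 0.15, 1.12 and 0.43 in W303-1A. It did not pass (-1.21 ± 0.41, adjusted p = 0.212, for CM1 and -1.15 ± 0.41, adjusted p = 0.246, for SM1). Both comparisons share the parent arrays. The mean of the 10 genes over the pool, without ethanol, was -0.28 in CM1, -0.20 in SM1 and 0.35 in W303-1A. The part of the parent's offset above its own pool in these differences was not tested. Without replicate 2 of CM1 with ethanol, ERG24 passed as lower in each mutant, and without replicate 1 of W303-1A with ethanol 1 passed in SM1. Of all genes, in either direction, 119 passed for CM1 and 130 for SM1 in the former fit, against 69 and 98 with all arrays. In the latter fit 106 passed for SM1. CM1 against SM1 without ethanol gave 0 of 10 passed and 0 at an unadjusted p under 0.05, where 1.01 % of all genes passed, and the 95 % intervals of the 10 differences together spanned -1.04 to 0.81.

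With 6.5 % ethanol, late ergosterol genes were higher in the mutants than in the parent. In CM1 6 of the 10 passed as higher and 0 as lower, where 6.96 % of all genes passed as higher. In SM1 5 of 10 passed as higher and 0 as lower, where 10.3 % of all genes did. The median difference from W303-1A was 1.12 for CM1 and 0.82 for SM1, against -0.0083 and -0.0074 for all genes. All 3 mutant arrays lay above all 3 parent arrays for 7 of the 10 genes in CM1 and for 7 in SM1, which held for 9.1 % and 14.8 % of all genes. The mean of the 10 genes was -0.62, 0.042 and -0.47 on the CM1 arrays and -0.80, -0.60 and -0.50 on the SM1 arrays, against -1.35, -1.59 and -1.63 on the W303-1A arrays. Both comparisons share the 3 parent arrays with ethanol. The SE of each gene comes from a spread shared by all 6 groups. With only the groups compared in the fit, 1 gene passed in CM1 and 2 in SM1. Of all genes 40 and 574 passed in that fit, in either direction, against 692 and 989 in the reported fit.

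The desaturase gene ERG3 differed most. It stood at -0.53, 0.18 and 0.0015 in CM1 and at -0.73, -0.75 and -0.028 in SM1, against -1.86, -2.19 and -2.23 in W303-1A, all with ethanol. This was 3.94-fold higher in CM1 (1.98 ± 0.27, adjusted p = 0.000348) and 3.02-fold higher in SM1 (1.59 ± 0.27, adjusted p = 0.000983). The oxidase gene ERG25 had -0.15, -0.43 and -0.37 in CM1 and -1.11, 0 and -0.94 in SM1, against -1.43, -2.20 and -2.23 in W303-1A. Its differences were 1.63 ± 0.31 for CM1 (adjusted p = 0.00378) and 1.27 ± 0.31 for SM1 (adjusted p = 0.0116). The value of replicate 2 of SM1 is exactly 0 in the deposited table, as were 167 probes on that array, 25 and 15 on a pair of others and none on the remaining 15 arrays. Whether such a 0 was measured is not stated in the sources used here. Without that array ERG25 did not pass in SM1 (0.93 ± 0.30, adjusted p = 0.0524), and with the exact zeros taken as missing it did (0.93 ± 0.30, adjusted p = 0.045).

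Squalene epoxidase and lanosterol demethylase, both drug targets, also passed in both mutants. ERG1 had -0.41, 0.12 and -0.45 in CM1 and -0.47, 0.011 and 0.17 in SM1, against -1.46, -1.76 and -1.10 in W303-1A. It was higher by 1.19 ± 0.25 in CM1 (adjusted p = 0.00661) and by 1.35 ± 0.25 in SM1 (adjusted p = 0.00197). ERG11 had -0.36, -0.65 and -0.67 in CM1 and -1.03, -0.90 and -0.99 in SM1, against -1.57, -2.15 and -2.18 in W303-1A. The arrays of each mutant lay above those of the parent, by 1.40 ± 0.25 in CM1 (adjusted p = 0.00214) and 0.99 ± 0.25 in SM1 (adjusted p = 0.0125).

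ERG5, the desaturase gene of the side chain, had 0.11, 0.038 and 0.18 in CM1 and -0.42, -0.40 and 0.33 in SM1, against -0.82, -0.88 and -0.85 in W303-1A. It passed in CM1 (0.96 ± 0.21, adjusted p = 0.00916) and in SM1 (0.68 ± 0.21, adjusted p = 0.0348), and its SM1 arrays fell into a low pair and 1 high value. The methyltransferase gene ERG6 had -1.08, 0.17 and -0.70 in CM1 and -1.24, -1.04 and -0.61 in SM1, against -1.88, -1.59 and -1.85 in W303-1A. It passed in CM1 (1.23 ± 0.29, adjusted p = 0.014) but not without the outlying replicate 2 of CM1, and it did not pass in SM1 (0.81 ± 0.29, adjusted p = 0.0713). ERG26 had -0.10, 0.97 and 0.24 in CM1 and 0.45, 0.28 and 0.30 in SM1, against -0.63, -0.70 and -0.14 in W303-1A. It passed in neither mutant (0.86 ± 0.28, adjusted p = 0.0605, for CM1 and 0.84 ± 0.28, adjusted p = 0.0546, for SM1), although the arrays did not overlap.

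For 3 genes the arrays of each mutant overlapped those of the parent, and none of the 3 passed. The isomerase gene ERG2 had -1.56, -0.53 and -1.65 in CM1 and -1.65, -1.24 and -1.49 in SM1, against -1.60, -2.15 and -2.31 in W303-1A. Its differences were 0.78 ± 0.28 for CM1 (adjusted p = 0.087), or 0.40 ± 0.23 without replicate 2 (adjusted p = 0.329), and 0.56 ± 0.28 for SM1 (adjusted p = 0.197). The last reductase gene ERG4 had -0.88, -0.48 and -0.67 in CM1 and -1.07, -0.89 and -0.93 in SM1, against -0.80, -1.20 and -1.96 in W303-1A. One parent array was higher than some of the mutant arrays, and the differences were 0.65 ± 0.29 for CM1 (adjusted p = 0.154) and 0.35 ± 0.29 for SM1 (adjusted p = 0.435). ERG24, the reductase after Erg11, had -1.27, 1.04 and -0.61 in CM1 and -0.71, -1.08 and -0.76 in SM1, against -1.48, -1.03 and -1.48 in W303-1A. Its differences were 1.05 ± 0.41 for CM1 (adjusted p = 0.104), which became 0.42 ± 0.28 without replicate 2 (adjusted p = 0.414), and 0.48 ± 0.41 for SM1 (adjusted p = 0.463).

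The number of genes higher in SM1 than in W303-1A with ethanol became 2 without replicate 2 or without replicate 3 of the parent with ethanol, the calls of ERG3 and ERG1 among those kept in every such fit. Of all genes, in either direction, 616 and 662 passed in these fits, against 989 in the reported fit. Without replicate 2 of CM1 with ethanol the counts were 5 for CM1, with a median of 0.97, and 7 for SM1. Of all genes 486 passed for CM1 and 1195 for SM1 in that fit, against 692 and 989 in the reported fit. CM1 against SM1 with ethanol gave 0 of 10 passed in limma and 0 at an unadjusted p under 0.05, where 2.44 % of all genes passed, and the 95 % intervals of the 10 differences together spanned -0.68 to 1.44. The median of these 10 differences was 0.33, and 0.16 without that array, where 0 passed.

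**Figure D3:**
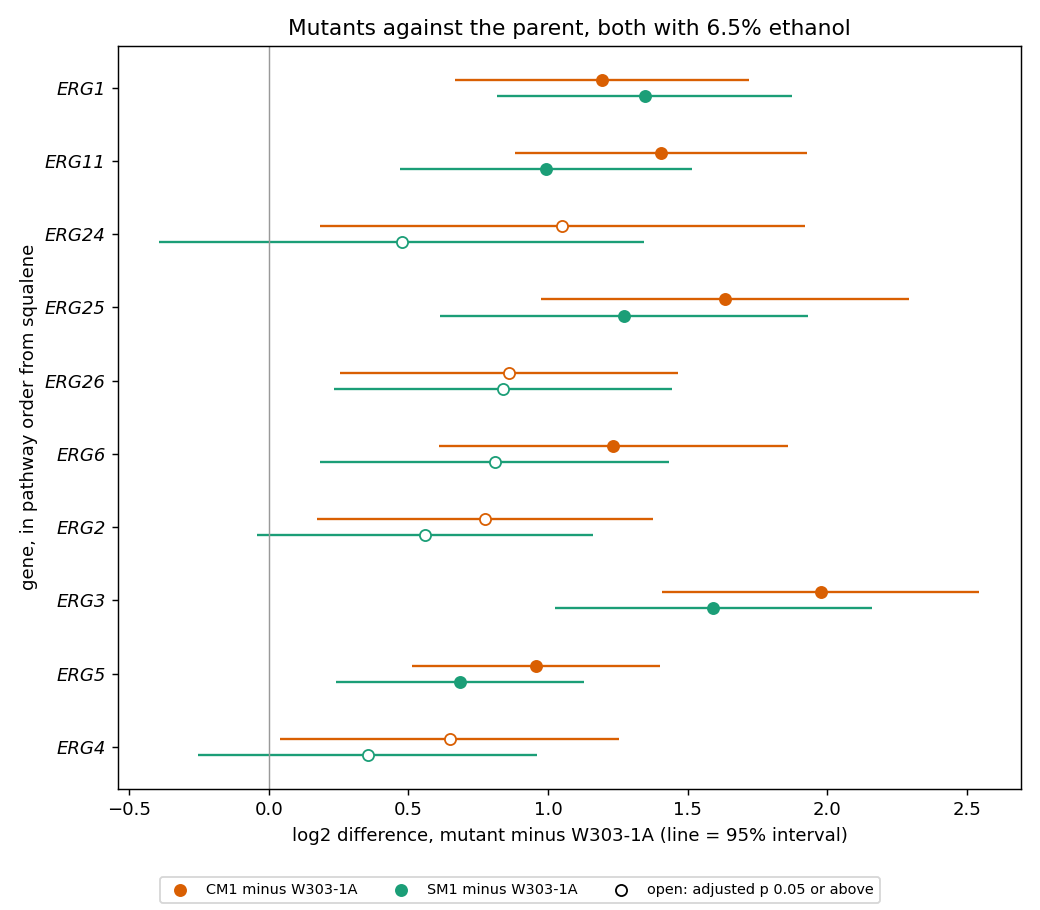
Log2 difference between each mutant and W303-1A, all with 6.5 % ethanol (horizontal axis), for the 10 genes in pathway order (vertical axis). Points are limma estimates with lines for the 95 % interval, filled where the adjusted p was under 0.05. All 20 points lie above 0, with ERG3 highest at 1.98 for CM1 and 1.59 for SM1.

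Whether the strains differed in their response to ethanol was tested as an interaction. The response of CM1 minus that of W303-1A passed as higher for 7 of the 10 genes, where 3.45 % of all genes did. ERG3 had the largest value at 3.02 ± 0.38 (adjusted p = 0.000533), from a response of 0.40 ± 0.27 in CM1 against -2.63 ± 0.27 in W303-1A. The other 6 were ERG24 (2.26), ERG11 (2.20), ERG25 (2.08), ERG6 (1.72), ERG5 (1.60) and ERG1 (1.58). For SM1 minus W303-1A 5 genes passed as higher, where 4.55 % of all genes did. ERG3 again led with 2.64 ± 0.38 (adjusted p = 0.00171), followed by ERG25 (1.80, and 1.45 ± 0.40 with adjusted p = 0.05005 without the array that holds its exact 0), ERG1 (1.64), ERG11 (1.28) and ERG5 (1.17). The genes that did not pass also had values above 0 in both. CM1 minus SM1 gave 0 of 10 passed in limma, where 0.336 % of all genes passed, and 1 gene, ERG11, at an unadjusted p under 0.05 (0.92 ± 0.35, adjusted p = 0.369). The 95 % intervals of these 10 values together spanned -0.93 to 1.86. Without replicate 2 of CM1 with ethanol 7 genes passed for CM1 minus W303-1A (median 1.54, against 1.66 with it), 6 for SM1 minus W303-1A, and 0 for CM1 minus SM1 (median 0.19, against 0.38 with it). Of all genes, in either direction, 241, 514 and 34 passed without that array, against 263, 360 and 19 with it. The 2 differences from W303-1A share the 6 parent arrays. The level of the mutants below the parent arrays without ethanol enters them, beside their level above the parent with ethanol.

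Without replicate 2 of W303-1A at 0 % ethanol, the array on which the 10 genes were highest, the differences were passed by 4 genes for CM1 and 2 for SM1. Of all genes, in either direction, 130 passed for CM1 and 204 for SM1, against 263 and 360 in the reported fit. For CM1, 4 also passed without its replicate 3 at 0 % ethanol, where 98 of all genes passed. For SM1, 2 passed without any 1 of its arrays at 0 % ethanol or of replicates 2 and 3 of the parent with ethanol, and 3 without replicate 3 of the parent at 0 % or replicate 2 or 3 of SM1 with ethanol. Of all genes 151 to 279 passed in the former fits and 230 to 294 in the latter. ERG3 passed in all of these fits.

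In the order of group means, W303-1A with ethanol was lowest for all 10 genes. W303-1A without ethanol was highest for 9, and CM1 with ethanol was highest for ERG26. SM1 with ethanol came second from below for 6 genes, and its distance to W303-1A with ethanol passed for ERG11 and ERG25 among them, but not for ERG24, ERG6, ERG2 and ERG4. Between CM1 and SM1 no difference passed at either ethanol level, so their order within a gene is not resolved beyond the spread of the arrays. The 10 genes followed one another across the 18 arrays. The 45 pairs had Pearson correlations from 0.156 to 0.954 with a median of 0.779, as a description over arrays that share the pool and the groups. ERG6 and ERG2 formed the closest pair (0.954), and ERG26 had the lowest median correlation with the other genes (0.376).

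The rest of the sterol network was described from lists of 56 further genes. With ethanol 2 of the 56 passed as lower and 0 as higher in CM1, 4 as lower and 1 as higher in SM1, and 14 as lower and 1 as higher in W303-1A. The shares of all genes that passed as lower and as higher were 1.73 and 3.88 % in CM1, 1.26 and 2.83 % in SM1, and 13.6 and 10.2 % in W303-1A. The counts of each list below stand beside these shares. Among 6 other late enzymes and partners, 0 passed in CM1, 1 was lower in SM1 and 3 were lower in W303-1A, with medians of -0.42, -0.45 and -0.96. The 3 in W303-1A were ERG27, the ketoreductase that works beside Erg25 and Erg26 (-1.42 ± 0.25, adjusted p = 0.000936), NCP1, the reductase that feeds electrons to the sterol cytochromes (-1.23 ± 0.29, adjusted p = 0.00692), and ERG7, lanosterol synthase (-1.18 ± 0.33, adjusted p = 0.0176). In SM1 the gene was ERG28, a scaffold of the demethylation complex (-1.09 ± 0.23, adjusted p = 0.0121). With ethanol ERG28 was lower in SM1 than in W303-1A (-1.03 ± 0.23, adjusted p = 0.00692), and CYB5, the cytochrome that serves desaturases, was higher (1.33 ± 0.25, adjusted p = 0.00226).

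Of the 10 early-step genes, from acetyl-CoA to squalene, 8 were lower with ethanol in the parent and 0 higher, with a median of -1.19. Of all genes 13.6 % were lower and 10.2 % higher. HMG1, an HMG-CoA reductase of the committed step, was lower by the most (-2.96 ± 0.31, adjusted p = 1.9e-05), followed by ERG13, HMG-CoA synthase (-2.001 ± 0.32, adjusted p = 0.000447), and MVD1, mevalonate pyrophosphate decarboxylase (-1.68 ± 0.24, adjusted p = 0.000213). The reductase isozyme HMG2 (-0.0099 ± 0.30) and squalene synthase ERG9 (0.065 ± 0.21) did not pass. In SM1 1 of 10 passed, HMG1 (-1.95 ± 0.31, adjusted p = 0.00195), and in CM1 0 did. With ethanol 3 early-step genes were higher in CM1 than in W303-1A, HMG1 (1.32 ± 0.31), ERG20, farnesyl pyrophosphate synthase (1.01 ± 0.22), and MVD1 (0.97 ± 0.24), and ERG9 was lower (-0.82 ± 0.21, adjusted p = 0.0195). In SM1 2 were higher and 0 lower. Of all genes, 6.96 % passed as higher for CM1 and 10.3 % for SM1.

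Of 7 genes that control the pathway, 1 was lower and 1 higher in W303-1A, where 13.6 % of all genes were lower and 10.2 % higher. ROX1, the repressor of hypoxic genes, was lower (-1.62 ± 0.32, adjusted p = 0.00199), and also in CM1 (-1.14 ± 0.32, adjusted p = 0.0496), while in SM1 0 of 7 passed. NSG2, a homologue of the mammalian Insig proteins that act on HMG-CoA reductase, was higher in W303-1A (0.82 ± 0.28, adjusted p = 0.0428), and with ethanol it was lower in CM1 and in SM1 than in W303-1A (-0.998 ± 0.28 and -1.002 ± 0.28). The activators UPC2 (-0.14 ± 0.51, adjusted p = 0.875) and ECM22 (-0.32 ± 0.33, adjusted p = 0.537) did not pass in W303-1A. Their messages do not show the activity of the proteins.

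The remaining lists hold genes that store, import or carry sterols or make haem. Among 5 sterol ester genes 0 passed in any strain. Among 11 genes of anaerobic sterol uptake and cell wall, SUT2, a relative of the sterol uptake regulator SUT1, was the gene that passed, and it was lower in each strain (-1.31 ± 0.27 in CM1, -1.03 ± 0.27 in SM1 and -1.005 ± 0.27 in W303-1A). Among 8 haem synthesis genes 0 passed in CM1 and W303-1A. In SM1 HEM4 was higher (1.08 ± 0.29, adjusted p = 0.0458) and HEM13, an oxygen-dependent step, lower (-1.12 ± 0.30, adjusted p = 0.0477). Among 9 sterol-binding genes KES1, an oxysterol-binding protein of the Golgi, was lower in W303-1A (-1.43 ± 0.30, adjusted p = 0.00303), and 0 passed in CM1 and SM1. In W303-1A, 1 gene lower among 11 or among 9 is near the 13.6 % of all genes that passed as lower.

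**Figure D4:**
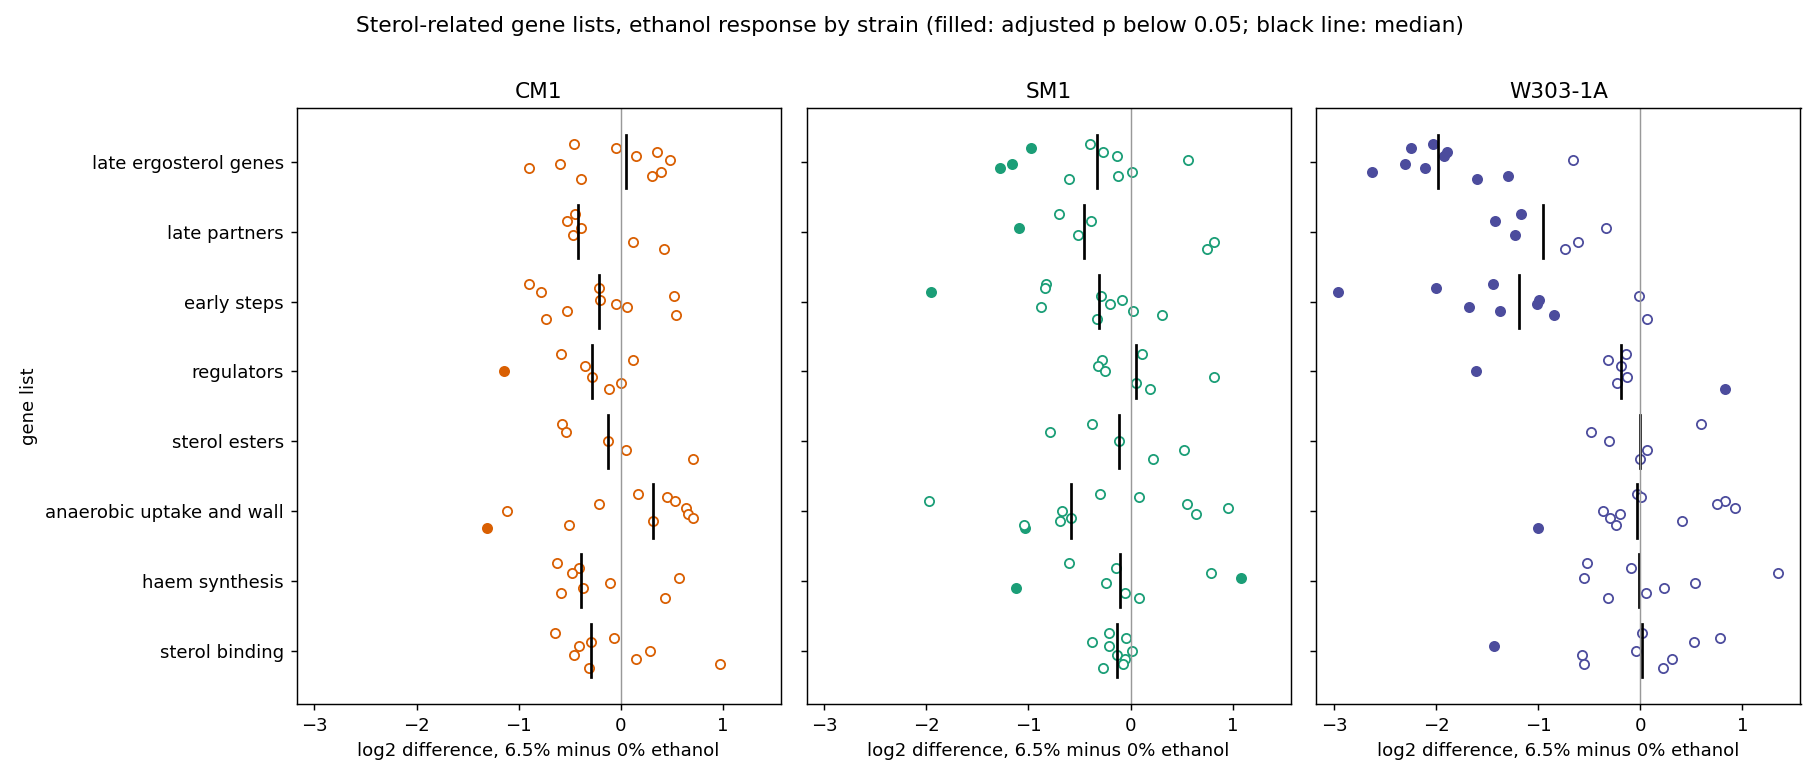
Log2 difference between 6.5 % and 0 % ethanol (horizontal axes) of the late ergosterol genes and the 7 related lists (vertical axis), in CM1, SM1 and W303-1A. Each point is a gene, filled where the adjusted p was under 0.05, and the black line is the median of the list. In W303-1A the medians of the late genes, their partners and the early steps lie at -1.98, -0.96 and -1.19, and those of the other lists between -0.19 and 0.019.

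The genes that flank the 10 on the chromosomes were set beside them. Of the 20 nearest neighbours, taken from the RefSeq gene order, 3 passed as lower and 3 as higher in W303-1A with ethanol, where 13.6 % and 10.2 % of all genes did, with a median of -0.10. Among all other genes, the 5 whose values across the 18 arrays were most like the mean of the 10 were ADO1 (Pearson r = 0.958), KEI1 (0.952), SAH1 (0.942), PUN1 (0.94) and VAN1 (0.934), of 5640 ranked. They encode adenosine kinase, a subunit of a sphingolipid synthase, S-adenosylhomocysteine hydrolase, a plasma membrane protein and a Golgi mannosyltransferase subunit. Their differences with ethanol in W303-1A ran from -2.33 for PUN1 to -1.42 for KEI1, and these correlations are a description over arrays that share the pool and the groups.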

How the data were processed

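The authors deposited normalized log ratios of culture and pool, read here as log2 values. Log base, direction and centring are not stated in the sources used here. Another base would scale every value by 1 factor. The column medians, in the order of replicates 1 to 3, were 0.0081, 0.024 and 0.0008 for CM1 with ethanol, 0.0043, 0.0091 and 0.0079 without, -0.00014, 0 and 0.0018 for SM1 with ethanol, -0.0041, 0.0099 and 0.025 without, 0.030, 0.010 and 0.014 for W303-1A with ethanol, and 3.79e-05, 0.015 and 0.0095 without. Signal intensities were not used here. Each group mean rests on 3 arrays, and each SE on a spread per gene shared by all 6 groups.

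Of 6368 probes 5673 carried 1 gene symbol, 0 several and 695 none. Averaging the 23 genes with 2 probes left 5650 genes. Swapped arrays were multiplied by -1. limma 3.58.1 under R 4.3.3 fitted 6 group means and a dye term to all 18 arrays, with empirical Bayes moderation and Benjamini-Hochberg adjustment over 5650 genes, in 12 comparisons. Group means ± SD are unadjusted for dye. The script was tested on simulated data. The table held 0 value columns of other samples.

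The genes and lists were chosen with earlier results of these data known. All 10 genes are named. From the lists at most 3 genes with the smallest p are named, with any that passed against the list. DAN2 was matched as PAU23 and DAN3 had no match. Genome positions and sequences are not given.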

Additional observations from a re-analysis of the deposited data

Results flagged for a closer look

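The ethanol response differed between a mutant and W303-1A for 12 combinations of gene and mutant, by the interaction term in limma (Benjamini-Hochberg over 5650 genes). For CM1 minus W303-1A the log2 values were 1.579 ± 0.35 for ERG1, 2.201 ± 0.35 for ERG11, 2.258 ± 0.58 for ERG24, 2.077 ± 0.44 for ERG25, 1.721 ± 0.41 for ERG6, 3.021 ± 0.38 for ERG3 and 1.602 ± 0.29 for ERG5, with adjusted p from 0.000533 to 0.0347. For SM1 minus W303-1A they were 1.637 ± 0.35 for ERG1, 1.277 ± 0.35 for ERG11, 1.796 ± 0.44 for ERG25, 2.637 ± 0.38 for ERG3 and 1.171 ± 0.29 for ERG5, with adjusted p from 0.00171 to 0.041. The parent arrays without ethanol, on which the mean of the 10 genes was 0.015, 0.63 and 0.39 over a pool of the same cultures, enter all 12, and the part of that offset in them was not tested.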

How the results depend on the processing

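Counts below are of the 10 genes that passed in limma, with the count of the reported fit in brackets. No difference that passed changed sign under any alternative. With no array turned, 0 passed in the ethanol responses of SM1 (3) and W303-1A (9), in CM1 (6) and SM1 (5) against W303-1A with ethanol, and in the response differences of CM1 (7) and SM1 (5) from W303-1A. Of all genes, 1, 0, 2, 8, 1 and 0 passed in these comparisons, in the same order. The reported fit had 231, 1349, 692, 989, 263 and 360. It had 317 in the CM1 response, and 69 and 98 for CM1 and SM1 against W303-1A without ethanol. Counts of all genes here are in either direction. Without the dye term the count was 1 in the SM1 response (3), 4 in the CM1 response difference (7) and 1 in that of SM1 (5). It was 4 for SM1 against W303-1A with ethanol (5). Of all genes 112, 74, 106 and 511 passed in these comparisons, in the same order. Quantile normalization gave 3 for CM1 and 2 for SM1 against W303-1A without ethanol (0 each), and 4 for CM1 (6) and 2 for SM1 (5) with ethanol. It gave 4 and 1 for the CM1 and SM1 response differences (7 and 5). All genes gave 268 and 324 without ethanol, 185 and 545 with ethanol, and 150 and 226 for the response differences, CM1 first. With only the groups compared in the fit, 1 passed in CM1 and 2 in SM1 against W303-1A with ethanol, and 4 in the CM1 response difference. Among all genes 40, 574 and 114 passed there. The 12 normal arrays alone gave 0 in the SM1 response (3), and 7 for CM1 (6) and 4 for SM1 (5) against W303-1A with ethanol. They gave 8 and 4 for the CM1 and SM1 response differences (7 and 5). Among all genes 154, 744, 743, 445 and 268 passed in these comparisons, in the same order. Array weights gave 10 in the W303-1A response (9), 1 in the CM1 response (0), and 4 for CM1 and 2 for SM1 against W303-1A without ethanol. They gave 8 for SM1 with ethanol (5), and 9 and 10 for the CM1 and SM1 response differences (7 and 5). All genes gave 1795, 602, 360, 483, 1362, 518 and 870 with array weights, in the same order. Removing a trend along the probe number gave 1 in the CM1 response (0) and 7 for CM1 against W303-1A with ethanol (6). It gave 5 in the CM1 response difference (7) and 4 in that of SM1 (5), of which 3 had passed in the reported fit. Among all genes 391, 536, 163 and 260 passed in these comparisons, in the same order. The cause of these changes was not tested. Taking the 207 exact zeros of the deposited table as missing, an alternative chosen after seeing the data, changed no count.

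Leaving out 1 array at a time gave 0 to 1 genes in the CM1 response, 0 to 3 in that of SM1, 9 to 9 in that of W303-1A, 0 to 1 in CM1 and in SM1 against W303-1A without ethanol, 5 to 8 for CM1 and 2 to 7 for SM1 with ethanol, 4 to 8 and 2 to 6 in the CM1 and SM1 response differences, and 0 to 0 in each comparison of CM1 with SM1. Of all genes, in either direction, these fits gave 113 to 345 in the SM1 response. They gave 392 to 1048 for CM1 and 616 to 1195 for SM1 against W303-1A with ethanol. The response differences had 98 to 577 for CM1 and 151 to 514 for SM1. After the dye term was removed, same-numbered arrays of different groups did not deviate together (correlations -0.517 to 0.408, median -0.106, 45 pairs). Of the 18 arrays, 2 were closest to their own number. Replicate 1 is the dye-swapped array of every group, so a deviation shared by the replicate 1 arrays was removed with the dye term. The check could not show such a deviation. The replicate numbers were not taken as pairs. Fitting a replicate block instead of the dye effect gave 9 genes in W303-1A, 3 in SM1, 6 for CM1 and 5 for SM1 against W303-1A with ethanol, and 7 in the CM1 response difference, and gave 4 in that of SM1, where ERG11 had an adjusted p of 0.0515. Among all genes 1289, 206, 631, 906, 239 and 308 passed in these comparisons, in the same order.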

Other observations

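The 5 genes whose enzymes use molecular oxygen (ERG1, ERG11, ERG25, ERG3 and ERG5) were set beside the other 5 (ERG24, ERG26, ERG6, ERG2 and ERG4), a grouping chosen after the values were seen, so it is given with no test of the split. With ethanol, 5 of 5 oxygen-using genes passed as higher in CM1 than in W303-1A, and 1 of 5 of the others, where 6.96 % of all genes did. That 1 gene, ERG6, did not pass without replicate 2 of CM1 with ethanol (0.93 ± 0.28, adjusted p = 0.0556 in limma). In SM1 5 of 5 passed, and 0 of 5 of the others, where 10.3 % of all genes did. The median differences were 1.40 and 0.86 in CM1, with its replicate 2 included, and 1.27 and 0.56 in SM1. At an unadjusted p under 0.05 in limma, all 10 genes were higher in CM1 and 7 in SM1. Of all genes 27.8 % and 30.2 % were past it in either direction. The standard errors also differed between the sets, at 0.21 to 0.31 for the oxygen-using genes and 0.28 to 0.41 for the others. With array weights all 10 genes passed in the SM1 response difference, where 870 of all genes passed, against 360 in the reported fit. In the W303-1A response 5 oxygen-using genes and 4 of the others passed as lower, where 13.6 % of all genes did. The medians were -2.03 and -1.90. In the SM1 response 1 and 2 passed, where 1.26 % of all genes were lower. In the CM1 response, and in each mutant against W303-1A without ethanol, 0 passed in either set. The response differences gave 5 and 2 for CM1 and 5 and 0 for SM1, where 3.45 % and 4.55 % of all genes were higher.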
